A study of Mus musculus with 10 samples.

Results

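Among the STAT5B binding sites of mouse mammary tissue, a group of 1350 strong sites was examined that also carried a STAT5A peak in wild type mice and still carried a STAT5B peak in mice without Stat5a. Members were chosen from the deposited peak lists by 3 conditions on wild type STAT5B peaks: an authors' score of at least 24.4, an overlap of at least 1 bp with a wild type STAT5A peak, and an overlap of at least 1 bp with a Stat5a-null STAT5B peak. Of the 6976 wild type STAT5B peaks, 25% reached the score, 98.7% overlapped a STAT5A peak, 34.8% overlapped a Stat5a-null STAT5B peak, and 19.4% met all 3 conditions. The same peak lists therefore chose the members, and the scores and shares that follow from the choice are a description, given with no test.

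STAT5A and STAT5B, a pair of closely similar transcription factors, end the signalling chain that runs from the prolactin receptor through the kinase JAK2. Once phosphorylated they pair up, enter the nucleus and bind palindromic DNA elements known as GAS elements (gamma-interferon activated sequences) near their target genes. In the mammary gland STAT5A is the more abundant of the pair. Milk protein genes are its best known targets, and STAT5B is known to take over part of its work when it is missing.

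The series holds 10 chromatin immunoprecipitation sequencing (ChIP-seq) libraries of mammary tissue, and peak lists of 3 of them were analysed. These are STAT5B in Stat5a-null tissue (labelled BB), STAT5B in wild type tissue (labelled AABB) and STAT5A in wild type tissue. All mice had a mixed 129SV::FVB/N::C57BL/6 background and were sampled on the day they gave birth, and both STAT5B libraries used the same antibody. Each group held 1 library of whole tissue, with no statement of how many mice went into it, so differences between genotypes rest on single libraries and are given without p-values. Genotype, animal and library cannot be told apart, nor can fewer bound cells and less binding per cell. Intervals are exact 95% intervals that cover counting error only.

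The lists held 2578 peaks for Stat5a-null STAT5B, 6976 for wild type STAT5B and 26237 for wild type STAT5A. The score is the authors' value per peak. Its scale is not stated, so it was used to order and describe peaks within a list. Within each list the scores were whole multiples of 1 step, the pattern that tag counts times 1 factor would give. Read this way, a member had a median of 99.8 tags (range 48.0 to 476) in the Stat5a-null list, 138 tags (102 to 520) in the wild type STAT5B list and 742 tags (189 to 1523) in the STAT5A list. Positions are on the mm9 build. No site was assigned to a gene and no sequence is shown, since a genome and annotation of that build were not used here.

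The members made up most of the strong STAT5B sites. Of 1744 wild type STAT5B peaks at or above the threshold, 1350 were members, a share of 77.4% (75.4% to 79.4%). A further 369 overlapped a STAT5A peak but no Stat5a-null STAT5B peak, and 25 had no STAT5A peak. A missing peak means that no peak was called, and weaker binding may still be present. Of those 25, 19 had a Stat5a-null STAT5B peak, a share of 76% (54.9% to 90.6%), against 78.5% (76.5% to 80.5%) among strong peaks with STAT5A. The groups were not matched for score, and the 25 included the highest wild type STAT5B score, 191.8, which was above that of any member. The highest member ranked 4 in the whole wild type STAT5B list and the next ranked 7. The other peaks above them were all among the 25. The shares therefore do not show whether sites of like score differ. The members held 52.4% of all Stat5a-null STAT5B peaks and 5.15% of all STAT5A peaks.

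The share of strong sites with STAT5A that were found without Stat5a was higher at higher scores, and above a score of 48.2 no site was missing. It was 62.7% (56.4% to 68.7%) for scores from 24.4 to below 26, 70.8% (64.9% to 76.2%) from 26 to below 28, 74.9% from 28 to below 30 and 74.6% from 30 to below 35. It then stood at 89.2% (84.4% to 92.9%) from 35 to below 40 and at 90.8% (86.5% to 94.2%) from 40 to below 50. All 89 sites with STAT5A from 50 to below 60 and all 47 from 60 upwards were members. So were all 152 sites with STAT5A above 48.2, the highest score of a strong site with STAT5A but no Stat5a-null peak. The step at 35 was larger than the counting error of the bands beside it. The Stat5a-null list is shorter than the wild type STAT5B list, with 2578 against 6976 peaks. The parts of list length and of genotype in the rise of this share with score were not tested.

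**Figure D1:**
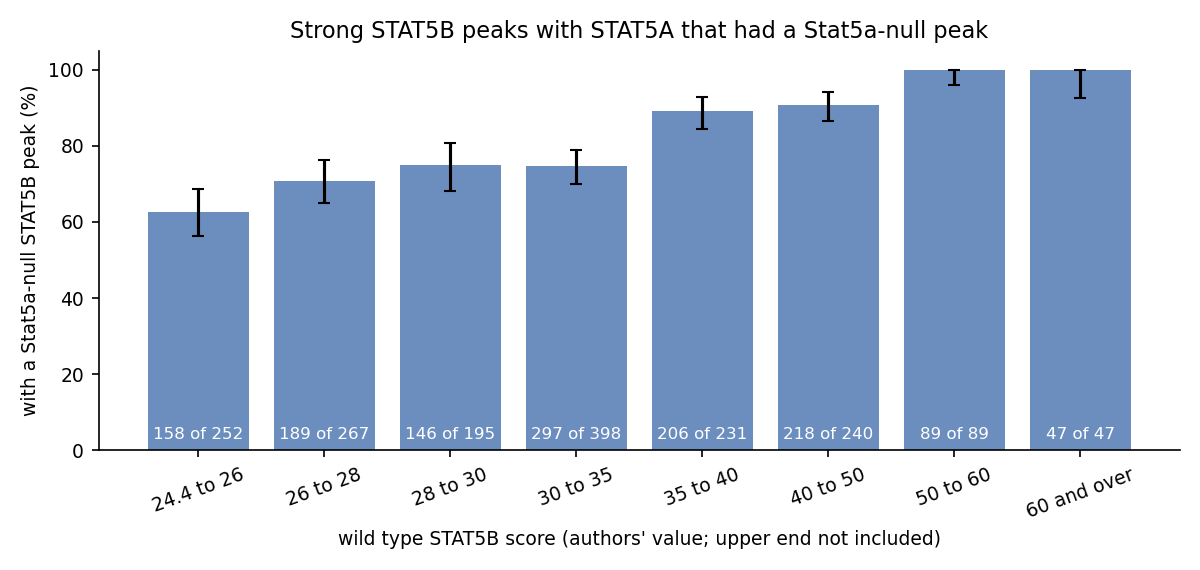
Share of strong wild type STAT5B peaks with a STAT5A peak that also had a Stat5a-null STAT5B peak (y axis, %), by band of wild type STAT5B score (x axis). Bars are shares, lines exact 95% intervals and the numbers in the bars the sites counted; the share is 62.7% in the lowest band and 100% in the 2 highest.

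The threshold divides a continuous range of scores. At a score of 24.4 there were 19 members, and at the next lower score in the list, 24.1, there were 20 sites that met the other conditions. Members at 24.4 included sites on chromosome 15 from 98343310 to 98343561, with a Stat5a-null score of 22.3 and a STAT5A score of 93.4, and on chromosome 17 from 7870838 to 7871089, with 12.6 and 89.5. Sites at 24.1 included those on chromosome 1 from 181066706 to 181066957, with 14.5 and 110.1, on chromosome 2 from 103009779 to 103010030, with 20.2 and 113.9, and on chromosome 3 from 32810392 to 32810643, with 11.8 and 104.1.

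The strongest member led the members in all 3 lists. This site, on chromosome 1 from 140503453 to 140503704, had a Stat5a-null STAT5B score of 100.2, a wild type STAT5B score of 124.2 and a STAT5A score of 261.6. The second by wild type STAT5B, on chromosome 4 from 40817327 to 40817578, had scores of 68.6, 90.0 and 238.9 in the same order of lists. A site on chromosome 7 from 126090957 to 126091208 had 72.2, 84.8 and 246.5, and one on chromosome 8 from 10871103 to 10871354 had 74.5, 78.6 and 231.9. Of the 10 highest members by wild type STAT5B, 8 were also among the 10 highest members of the Stat5a-null list and 7 among the 10 highest of the STAT5A list.

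The 2 of these 10 that fell outside the Stat5a-null top group lay on chromosomes 2 and 16. The site on chromosome 2 from 110497883 to 110498134 scored 43.4 in Stat5a-null and 79.3 in wild type tissue, which placed it 54 and 7 among the 1350 members. Counting error of this 1 site gives places 20 to 113 and 3 to 14, with no allowance for its having been picked from the 10 highest. The site on chromosome 16 from 88563443 to 88563694 scored 45.2 in Stat5a-null and 76.7 in wild type tissue (places 40 and 9, with ranges of 19 to 94 and 4 to 19). Their STAT5A scores of 225.9 and 221.9 placed them 10 and 16.

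Over all members, the Stat5a-null scores had a median of 21.0 (quartiles 16.65 and 27.8, range 10.1 to 100.2). The wild type STAT5B scores had a median of 33.0 (27.9 and 40.4, range 24.4 to 124.2), and the STAT5A scores one of 127.5 (110.8 and 151.1, range 32.5 to 261.6). Against their whole lists, the members lay close to as high as their number allows in both. With the percentile as the share of a list that scored lower, tied peaks taking their middle rank, the median member lay at percentile 70.8 (69.0 to 71.9) of the Stat5a-null list, and its quartiles were at 49.8 and 86.2. It lay at percentile 97.1 (96.9 to 97.3) of the STAT5A list, and 98.5% of members (97.7% to 99.1%) belonged to the highest-scoring 10% of STAT5A peaks. The 369 strong sites with STAT5A but no Stat5a-null peak were also high in that list, at a median percentile of 95.2 (quartiles 93.5 and 96.9). The 1350 highest peaks of each list would have median percentiles of 73.6 for Stat5a-null STAT5B and 97.4 for STAT5A, so the gap between the lists follows from their lengths.

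Sites below the threshold that met the other conditions ranked lower in the Stat5a-null list. Members placed 75% (72.6% to 77.3%) of their peaks in the higher-scoring 50% of that list, against 22.7% (20.2% to 25.3%) for the 1050 weaker sites. Median Stat5a-null scores were 21.0 for members and 13.9 for weaker sites. The order of sites by score was thus partly shared between the genotypes, which the threshold on the wild type score does not fix by itself.

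The order of the members was closer between the 2 wild type lists than between the genotypes. Spearman's rho over the 1350 members was 0.61 for Stat5a-null against wild type STAT5B, 0.56 for Stat5a-null STAT5B against wild type STAT5A, and 0.87 between STAT5A and STAT5B in wild type tissue. These are descriptions across sites of 3 libraries, and the wild type libraries share their genotype while the STAT5B libraries share their antibody. Members have the fewest tags in the Stat5a-null list, and counting error lowers a correlation more where tags are fewer; its part in the lower value was not tested.

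By quartile groups of the members the same pattern held. Of the 337 members in the highest quartile group by wild type STAT5B, 225 were also in the highest quartile group by Stat5a-null STAT5B, or 66.8% (61.5% to 71.8%), and 22 were in the lowest, or 6.53% (4.14% to 9.72%). By STAT5A, 279 of the 337 were in the highest quartile group, or 82.8% (78.3% to 86.7%), and 2 in the lowest, or 0.593% (0.0720% to 2.13%). Both lists were read at the same 337 members, so these intervals do not serve to compare the lists. The Stat5a-null list has the fewer tags, and the part of counting error in its lower share was not tested. Median Stat5a-null scores in the 4 quartile groups, from the lowest to the highest by wild type STAT5B, were 17.3, 18.5, 22.5 and 32.2, and median STAT5A scores were 105.2, 116.3, 137.4 and 170.4.

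**Figure D2:**
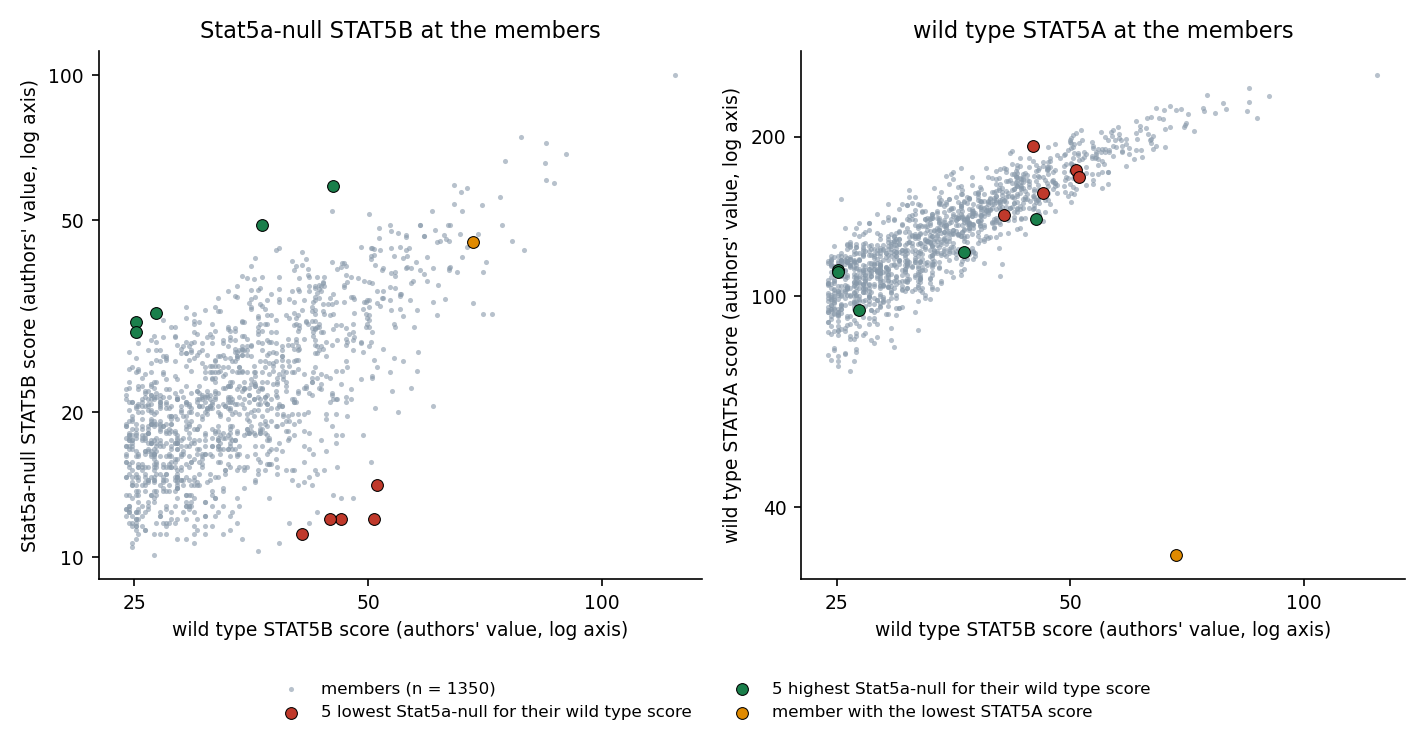
Scores of the 1350 members (1 grey point each, log axes): Stat5a-null STAT5B (left panel, y axis) and wild type STAT5A (right panel, y axis) against wild type STAT5B (x axis). Coloured points mark the 5 lowest and 5 highest Stat5a-null scores for a given wild type STAT5B score and the member with the lowest STAT5A score of 32.5; the cloud is wider on the left (Spearman's rho 0.61) than on the right (0.87).

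Some members were strong in wild type tissue and near the bottom of the members without Stat5a. The lowest for its wild type score, on chromosome 15 from 42165498 to 42165749, scored 12 in Stat5a-null and 50.9 in wild type tissue, with 57 and 213 tags. It placed 1299 of 1350 by Stat5a-null STAT5B (1095 to 1350 within counting error), 115 by wild type STAT5B (56 to 221) and 155 by STAT5A. The next lay on chromosome 6 from 82508275 to 82508526 (12 in Stat5a-null and 46.1 in wild type tissue), on chromosome 15 from 42084638 to 42084889 (12 and 44.7), on chromosome 17 from 14731179 to 14731430 (11.2 and 41.1) and on chromosome 12 from 5396661 to 5396912 (14.1 and 51.3). STAT5A scores at these 5 sites ran from 142.4 to 192.0. The choice favours sites with high wild type STAT5B scores, and STAT5A follows those scores, so these values are largely set by how the sites were picked.

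Both chromosome 15 sites belonged to 1 stretch. Within 100 kb of the lowest site there were 4 members, 85.9 kb apart from first to last, and all 4 placed lower by Stat5a-null than by wild type STAT5B. Their Stat5a-null scores were 15.2, 12, 17.5 and 12 in order along the chromosome, against wild type STAT5B scores of 43.9, 44.7, 37.3 and 50.9. Among the 1350 members they placed 930 to 1299 by Stat5a-null and 115 to 442 by wild type STAT5B. The stretch was singled out after its values were seen.

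Other members placed far higher among the members by Stat5a-null than by wild type STAT5B. These and the low sites above are the extremes of 1350, and the place ranges make no allowance for that. The site on chromosome 8 from 129260476 to 129260727 scored 48.8 in Stat5a-null and 36.5 in wild type tissue and placed 23 (14 to 59 within counting error) and 478 (260 to 797). The site on chromosome 4 from 150059259 to 150059510 scored 58.9 in Stat5a-null and 45.1 in wild type tissue and placed 10 (6 to 19) and 202 (105 to 383). Further such sites lay on chromosome 6 from 58556738 to 58556989, on chromosome 12 from 33346832 to 33347083 and on chromosome 4 from 132123498 to 132123749, with Stat5a-null scores of 30.7, 32.2 and 29.3 against wild type scores of 25.1, 26.7 and 25.1. By STAT5A these 5 placed 488 to 1272, with scores from 94.1 to 140.0, which the choice of sites likewise largely sets.

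A single member broke the close relation of STAT5A and STAT5B. On chromosome 6 from 136752852 to 136753103 the Stat5a-null score was 45 and the wild type STAT5B score 68.3, which placed it 43 and 19 among the members, but the STAT5A score was 32.5, the lowest of all 1350. The next lowest STAT5A score was 72.3. The STAT5A centre lay 127 bp from the wild type STAT5B centre, the farthest of any member, while the Stat5a-null centre lay 22 bp away. It was chosen after its values were seen.

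Within bands of STAT5B score, median STAT5A scores of sites with and without a Stat5a-null peak lay closer together than over the whole class. Over the whole class the STAT5A median was 127.5 (125.6 to 130.0) for members and 110.8 (108.7 to 115.2) for the 369 strong sites without a Stat5a-null peak, but these also had lower STAT5B scores, with medians of 33.0 and 28.4. Within bands of wild type STAT5B score the medians were 102.5 for members and 96.0 for the others from 24.4 to below 26, 108.2 and 105.1 from 26 to below 28, and 112.8 and 111.0 from 28 to below 30. They were 125.6 and 120.9 from 30 to below 35, 140.0 and 146.3 from 35 to below 40, and 159.3 and 151.6 from 40 to below 50. The members' median was the higher in 5 of the 6 bands, and in each band the quartile ranges overlapped. Quartiles describe the spread of sites, so their overlap does not show whether the medians differ. Intervals of the band medians were not computed.

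**Figure D3:**
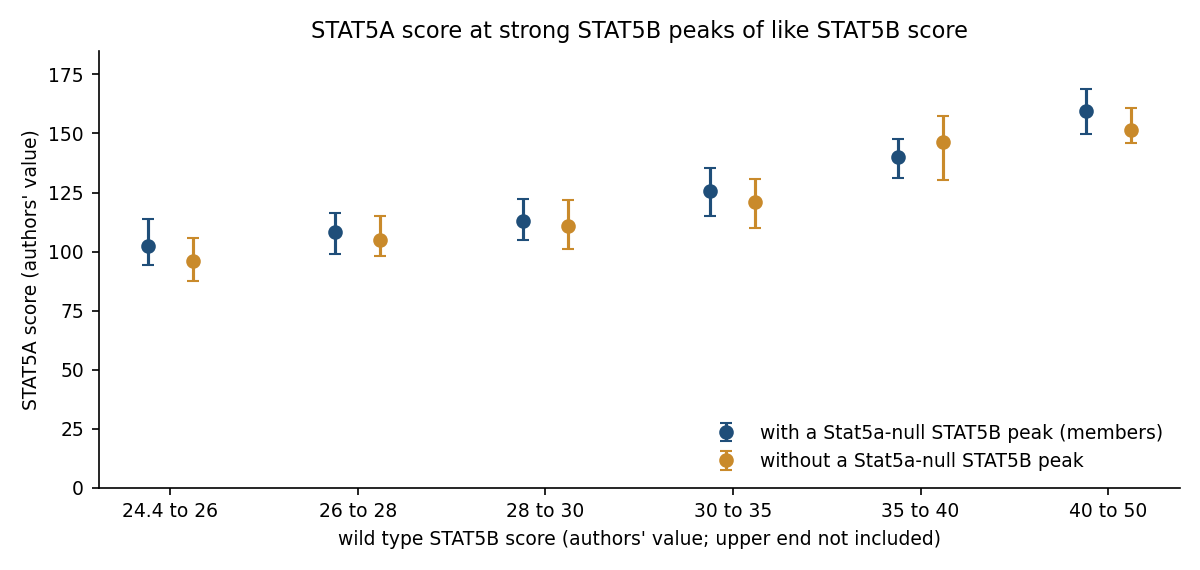
STAT5A score (y axis) of strong STAT5B sites with a Stat5a-null STAT5B peak (members, left point of each pair) and without one (right point), by band of wild type STAT5B score (x axis). Points are medians and lines the quartiles; in each band the quartile ranges overlap, and the members' median is the lower only from 35 to below 40.

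Peak centres of the members lay close together in all lists. The Stat5a-null STAT5B centre was a median of 19 bp (17 to 20) from the wild type STAT5B centre, and the STAT5A centre 16 bp (15 to 17). Within 50 bp lay 87.7% (85.8% to 89.4%) of Stat5a-null centres and 95% (93.7% to 96.1%) of STAT5A centres, and 23 and 3 members exceeded 100 bp. The direction was mixed, with 701 Stat5a-null centres on the higher-coordinate side and 628 on the lower. Distances hardly varied with strength: the Stat5a-null median was 18 bp in both the highest and the lowest quartile group by wild type STAT5B. Weaker sites found in both genotypes had medians of 20 bp for Stat5a-null and 17 bp for STAT5A.

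Members were found on all autosomes and were rare on the X chromosome. The median density over the 19 autosomes was 5.44 members per 10 Mb, from 4.26 on chromosome 3 to 8.60 on chromosome 15 and 8.64 on chromosome 19. The X chromosome held 5 members, or 0.300 per 10 Mb. This was 0.370% of members (0.120% to 0.862%), against 6.31% of the placed sequence, 0.955% (0.459% to 1.75%) of weaker sites found in both genotypes and 1.55% (1.20% to 1.98%) of weaker sites without a Stat5a-null peak. The members' interval met that of weaker sites found in both genotypes and not that of weaker sites without a Stat5a-null peak. The X was low in each whole list too. It held 0.738% (0.445% to 1.15%) of Stat5a-null STAT5B, 1.15% (0.911% to 1.43%) of wild type STAT5B and 2.05% (1.88% to 2.23%) of STAT5A peaks. Of these lists, the members' interval met that of the Stat5a-null list alone. The lists include the members or their overlapping peaks, so this does not compare separate groups. Of the strong sites without a Stat5a-null peak, 0 of 369 lay on the X, which by the exact interval allows up to 0.995%.

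**Figure D4:**
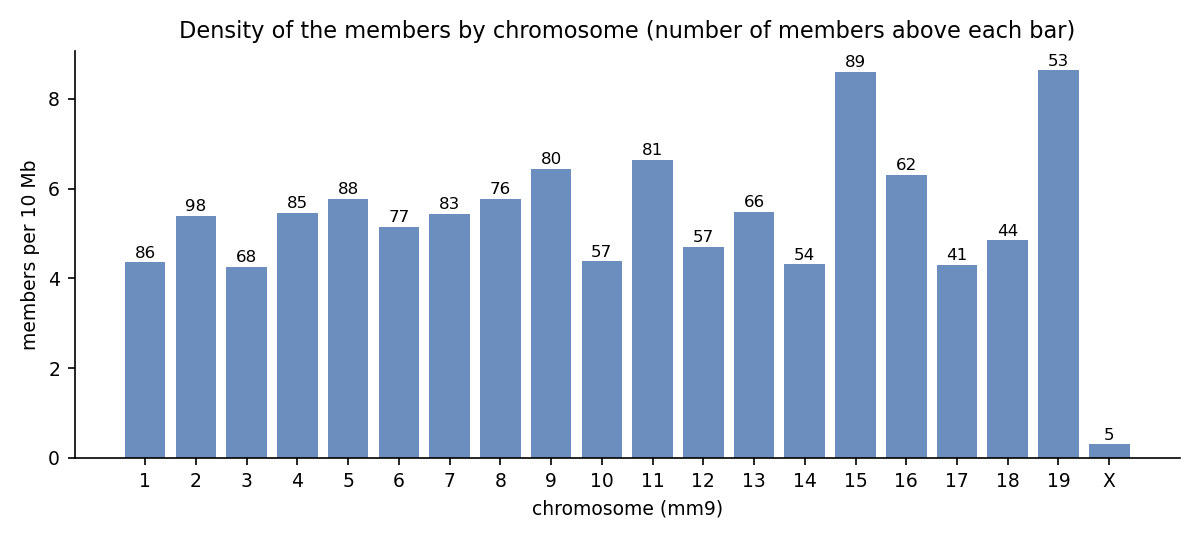
Members per 10 Mb (y axis) on each mm9 chromosome (x axis), with the number of members above each bar. Chromosomes 15 and 19 are highest at 8.60 and 8.64 per 10 Mb, and the X is lowest at 0.300.

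Chromosomes also differed in the share of strong STAT5A-bound STAT5B sites that were members. Among autosomes it was highest on chromosome 5, at 88 of 99 sites or 88.9% (81.0% to 94.3%), followed by chromosome 7 at 83 of 97 or 85.6% (77.0% to 91.9%). It was lowest on chromosome 13, at 66 of 101 or 65.3% (55.2% to 74.5%). The intervals of chromosomes 5 and 13 did not meet, but they are the extremes of 19 and nothing was adjusted for that. The chromosomes were also not matched for STAT5B score, and the share was higher at higher scores. All 5 such sites on the X were members.

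Within 10 kb, members lay in company with other STAT5A peaks about as often as the other STAT5B sites did. Another STAT5A peak was found within 10 kb of the member's own in 63.4% (60.8% to 66.0%) of members, in 63.4% (58.3% to 68.3%) of strong sites without a Stat5a-null peak, in 59.3% of weaker sites found in both genotypes and in 59.5% of weaker sites found in wild type alone. Among all STAT5A peaks the share was 52.1% (51.5% to 52.7%). Within 25 kb the share was 85.1% (83.1% to 87.0%) for members, 81.8% (77.5% to 85.6%) for strong sites without a Stat5a-null peak, 81.1% (78.6% to 83.5%) for weaker sites found in both genotypes and 78.8% (77.5% to 80.0%) for weaker sites found in wild type alone. At that distance the members' interval met those of the other classes except the last. The next STAT5A peak was a median of 6.55 kb away for members and 9.28 kb for all STAT5A peaks.

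The share of sites found without Stat5a was slightly higher with a member within 10 kb, in sites not matched for score. Of the 434 weaker sites with STAT5A that had a member within 10 kb, 101 had a Stat5a-null peak, or 23.3% (19.4% to 27.5%), against 20% (18.9% to 21.2%) of the 4735 without one. Of the 262 strong sites with another member within 10 kb, 80.2% (74.8% to 84.8%) were members, against 78.2% (76.0% to 80.3%) of the 1457 others. The intervals met in both comparisons, which does not show that the shares were equal. Sites near a member had the higher median score in both, at 16.5 against 15.5 for weaker and 33.3 against 31.5 for strong sites. Within 5 kb the shares of weaker sites were further apart, at 26.5% (21.1% to 32.4%) and 20% (18.9% to 21.1%), with median scores of 17.4 and 15.5. Within 25 kb they were 23.4% (20.3% to 26.6%) and 19.8% (18.7% to 21.0%). Strong sites of either kind lay side by side: 52 of the 369 without a Stat5a-null peak had a member within 10 kb.

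Most members stood alone, and a few formed runs. With gaps of up to 50 kb between neighbouring centres, 920 members were single, 135 pairs formed, and 160 members (11.9%) were in runs of 3 or more. Only 3 runs held 5 or more members. The gap was chosen after the positions were seen, and no run of 5 was left at 25 kb, while 8 were found at 100 kb.

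The longest run lay on chromosome 5 from 88091456 to 88203573 and held 8 members in 112 kb. All 10 wild type STAT5B peaks there, the 8 members and 2 weaker ones, had a Stat5a-null STAT5B peak, and 10 of the 11 STAT5A peaks had STAT5B in both genotypes. The members' Stat5a-null scores, in order along the chromosome, were 20, 24.0, 26.9, 33.9, 20.2, 23.1, 21.5 and 36.8. Their wild type STAT5B scores were 26.7, 27.2, 34.1, 42.5, 31.0, 37.0, 38.2 and 46.6, and their STAT5A scores ran from 107.2 to 173.5. The last site was the highest of the run in all 3 lists. The members of this run were not among the very highest, and they placed 122 to 749 by Stat5a-null and 179 to 1098 by wild type STAT5B.

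The run on chromosome 17 from 74268308 to 74320015 held 6 members in 51.7 kb, and these were all the STAT5B peaks there in either genotype, among 8 STAT5A peaks. The first 2 members scored 28.8 and 33.0 in Stat5a-null and 25.3 and 29.1 in wild type tissue. The other 4 scored 22.9, 20.4, 34.3 and 19.2 in Stat5a-null and 35.3, 31.0, 62.8 and 39.6 in wild type tissue. By score, order thus differed between the STAT5B libraries within 1 run. The first site ranked above 3 others by Stat5a-null and below all others by wild type STAT5B. Each score has counting error and comes from 1 library, and whether the order differed beyond that error was not tested.

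The run on chromosome 11 from 109599699 to 109693144 held 5 members in 93.4 kb. It also held 2 strong STAT5B sites without a Stat5a-null peak, with wild type scores of 33.4 and 24.6 and STAT5A scores of 142.2 and 128.1. Its members scored 59.1, 17.5, 33.9, 21.5 and 21.3 in Stat5a-null and 64.5, 28.4, 40.1, 26.5 and 26.3 in wild type tissue, and all 5 had a higher place among members by Stat5a-null than by wild type STAT5B. Of these, 3 had a lower wild type STAT5B and STAT5A score than the site of 33.4 that had no Stat5a-null peak. These are single scores with counting error, and weaker binding may be present where no peak was called. Whether strength in wild type tissue orders the sites of this run was not tested.

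**Figure D5:**
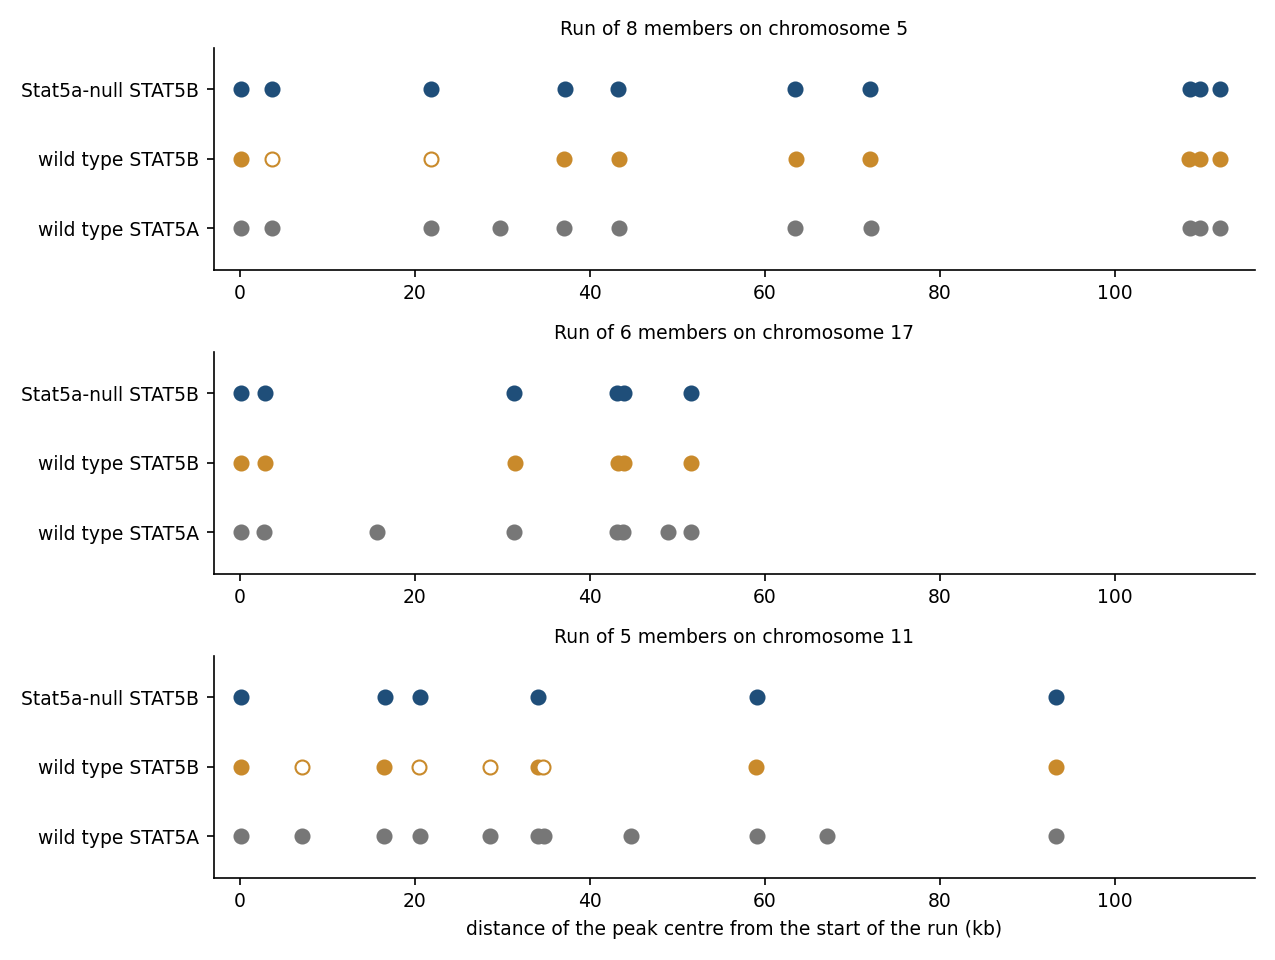
Peak centres in the 3 largest runs of members, by distance from the start of the run (x axis, kb), for Stat5a-null STAT5B, wild type STAT5B and wild type STAT5A (rows from top to bottom). In the wild type STAT5B row filled circles are members and open circles other peaks; each open circle of the chromosome 5 run has a Stat5a-null peak above it, while 3 of the 4 in the chromosome 11 run have none.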

How the data were processed

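CASAVA, BWA, HOMER and the build mm9 are named in the upstream work, per the submitters' processing notes. Their versions, any control library and the calling threshold: not given in the sources used here. Every list the authors deposited gives a chromosome, start, end and 1 value per peak, a signal of unstated scale called the score here. Starts were read as 0-based and are printed 1-based. Every peak had 1 width per list (258 bp for Stat5a-null STAT5B, 252 bp for wild type STAT5B, 276 bp for STAT5A), and a centre is the midpoint.

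Tags are the score divided by the largest step (searched from 0.16 to 0.4) of which every score in a list is a whole multiple within 0.055: 0.210, 0.239 and 0.172 for the lists in that order. They are inferred, total reads are unknown, and reads without molecular identifiers are not independent molecules. Shares have exact Clopper-Pearson 95% intervals, medians order-statistic intervals and single scores exact Poisson intervals of the tags, which were turned into places among the members; tied members share the first place of the tie, and quartile groups break ties in list order. Peaks within a list are treated as independent. No test between conditions was made, with 1 library per group. Chromosome lengths are those of mm9 in GenomeInfoDb 1.38.1. No member lay on unplaced sequence. Overlaps were tested on simulated data (500 of 500 planted shared peaks found) and gave the counts of bedtools 2.31.1. Python 3.11.15 was used with scipy 1.17.1, pandas 2.3.3, numpy 2.4.6 and, for figures, matplotlib 3.10.9.

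The members, comparisons and alternatives were chosen with earlier results of these data known. Sites named are the 10 highest members by wild type STAT5B, the 5 highest by STAT5A and by Stat5a-null STAT5B, the 5 highest and 5 lowest Stat5a-null scores divided by the wild type STAT5B score (used only to pick sites), and those beside the threshold; examples are printed. The planned searches for GAS motifs, for nearby gene starts and for genes of fixed lists were not run, because the gene and promoter tables at hand are of another build. The other 7 samples were not analysed here.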

Additional observations from a re-analysis of the deposited data

How the results depend on the processing

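For 10 values, 51 alternatives were computed. Of these, 40 stayed within the counting interval of the reported value and 11 moved. Not all of the 40 could have moved. Keeping only chromosomes 1 to 19 and X left each value it was applied to the same, since no member lay on unplaced sequence. Cutting the STAT5A list to its highest-scoring 50% kept all 1350 members, whose lowest STAT5A percentile was 58.7. Taking the highest-scoring 10% of wild type STAT5B peaks in place of the threshold left 619 members. It put the share of strong sites that were members at 88.7%, the median STAT5A percentile at 98.7, the median Stat5a-null percentile at 84.97, the highest quartile group also highest in Stat5a-null tissue at 61.0%, members with a neighbouring STAT5A peak at 66.6%, and sites below that threshold found without Stat5a near a member at 34.1%. The 34.1% is given without the share for sites away from a member, so it does not show whether nearness went with a difference. With the STAT5A list cut to its highest-scoring 50%, 55.0% of members had a neighbouring STAT5A peak. Neighbours within 5 kb and 25 kb gave 39.5% and 85.1%. Runs of 5 or more members numbered 0 at gaps of 25 kb and 8 at 100 kb. Requiring an overlap of 50% of both peaks left 1338 members and centres within 100 bp left 1326, with no value moved, and the X share and centre distances stayed within their intervals throughout. Alternatives for the quartile groups, the sites near a member, the STAT5A centre distance and the runs were chosen after seeing the data. Motif and gene start alternatives were not run. No paired analysis was possible because each group has 1 library, and for the same reason no replicate could be left out. A site without a called peak may still be bound below the calling threshold, which the tags of the Stat5a-null library limit.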
